A study of Mus musculus with 8 samples.

Results

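Expression of 10 genes for ATP-binding cassette (ABC) transporters, the membrane pumps best known for carrying drugs and lipids out of cells, was measured in sorted cells of MAM326, a mouse mammary cancer line. The genes were Abcg2, Abcb1a, Abcb1b, Abcc1, Abcc2, Abcc3, Abcc4, Abcc5, Abca1 and Abca3. They were found as all non-control probes carrying these names on one-colour Agilent arrays, which gave 13 of the 55681 probes. Abcc5 had 4 probes and each of the other genes had 1. Cells grown in serum-containing medium, with no drug named in the labels, were separated by flow cytometry 2 days after seeding, and the GFP-positive and the GFP-negative fraction were each profiled on 4 arrays. The labels describe 4 experiments at different passages. They do not state what drives GFP, nor which arrays came from the same experiment, so every p below measures array-to-array spread, which may be technical.

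ABC transporters bind and hydrolyse ATP to move a substrate across a membrane. Abcb1a and Abcb1b are the rodent pair of genes for P-glycoprotein, which expels many bulky hydrophobic drugs, and Abcg2 encodes the breast cancer resistance protein, which also exports the dye used to find side population cells and is made in the lactating mammary gland. Abcc genes encode the multidrug resistance-associated proteins, which export organic anions and conjugates with glutathione or glucuronate. Abca1 passes cholesterol and phospholipid to apolipoprotein A-I, and Abca3 moves lipid into the lamellar bodies of lung alveolar cells.

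Each transcript was read by a 60-base probe, and the first 30 bases of 5 of these are shown because the results turn on them. They lie, in mm9 coordinates as the files give them, at chr5:8748075-8748134 (plus strand) for Abcb1a, chr5:8865925-8865984 (plus) for Abcb1b, chr17:24547066-24547125 (plus) for Abca3, chr6:58642312-58642371 (plus) for Abcg2 and chr4:53043944-53044003 (minus) for Abca1.
Abcb1a: actcagacatgggcacctgagttcagatcc
Abcb1b: tccaggctggagcaaagcgctcatgagctg
Abca3: cagggctgagtagtgtcatctcttgaggat
Abcg2: cctggcttgtatgattattatcttcctcac
Abca1: gttgcatccctttttgtagaacatttatat
The whole probes of Abcb1a and Abcb1b share no run longer than 7 bases, although the genes are close paralogs. Whether either probe also binds the other transcript was not tested. Which exon or untranslated region a probe matches was not analysed here.

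Between 45.1% and 57.4% of all probes were well above background per array, fewest on GFP-positive replicate 2 and most on GFP-positive replicate 3, and no probe was saturated. All 8 arrays shared 1 slide. GFP-positive replicates 1 and 3 and GFP-negative replicates 2 and 4 lay in its row 1, and the other 4 arrays in row 2. The rows are a possible batch. The p-values below come from a fit without the row, and the values within each row are given for the transporters and the other genes whose difference is described at length. Of the 10 marker genes of mammary epithelial cells, such as Epcam, Krt8 and Krt18, all were well above background on every array. Their summed signal was 568 to 829 times the array's 75th percentile in GFP-positive cells and 453 to 731 times in GFP-negative cells. All 10 had a higher mean in GFP-positive cells, where 7779 of all 19773 genes did. The groups overlapped for each of the 10, and none passed the threshold given below. Of the 9 fibroblast markers, 6 were well above background on every array, with Col1a2 and Col1a1 among them, and 2, Lum and Fap, on none. Their sum ran from 3.82 to 60.5 in GFP-positive and from 14.2 to 171 in GFP-negative cells. Of the 7 tested, 6 had a lower mean in GFP-positive cells, and Thy1 differed by 0.39. The median difference of the 7 was -1.75 on the log2 scale, the groups overlapped for each, and none passed the threshold. Of 12 leukocyte markers 6 were well above background on every array, with Csf1r and Itgam among them, 3 on no array, and Ptprc on 1. The sum was 23.2 to 30.9 in GFP-positive cells and 18.7 to 24.6 in GFP-negative cells. Of the 6 tested, Cd68 and Cd14 rose by 1.00 and 0.56 and passed the threshold given below (adjusted p = 0.00438 and 0.0499 in limma). Among all genes tested, 1.82% passed as higher and 0.733% as lower in GFP-positive cells. Ly6g, Csf1r, Itgam and Cd3e differed by 0.93, 0.29, 0.03 and -0.08 and did not pass. Of 9 endothelial markers 2, Kdr and Eng, were well above background on every array, and Pecam1 on 3 arrays of each group. Another 5, Cdh5, Tek, Emcn, Cldn5 and Tie1, were so on no array. The sum, nearly all of it from Kdr, was 6.58 to 8.28 in GFP-positive cells and 6.63 to 8.46 in GFP-negative cells. The part of these markers in the differences below was not tested. Fewer cells of a type and less RNA per cell cannot be told apart in sorted bulk samples.

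Of the 10 transporter genes, 9 were well above background on enough arrays to be tested, and none passed the threshold (an adjusted p of 0.05 in limma over 19773 genes). Abcb1a and Abca3 came nearest and were the only members whose GFP-positive arrays all lay above all GFP-negative ones. The other tested members were Abcc3, Abca1 and Abcb1b, with positive differences at an unadjusted p under 0.05, and Abcc4, Abcc1, Abcc5 and Abcg2, with larger p values. Over all genes 2.55% passed the threshold, 1.82% higher and 0.733% lower in GFP-positive cells, so that 0 of 9 is near the background. That balance turned under 2 other settings: 538 genes were higher and 627 lower with a trended robust prior, and 684 higher and 795 lower with array weights. At an unadjusted p under 0.05 in limma 5 of the 9 were higher and 0 were lower, where 22.9% of all genes reached that level, 7.82% higher and 15.1% lower. Abca1 is among the 5 although 2 of its GFP-negative arrays were not well above background; without it 4 of 8 were higher and 0 lower, with a median difference of 0.37. The groups of 2 of the 9 did not overlap, both higher in GFP-positive cells, against 16.6% of all genes, 5.07% higher and 11.6% lower. The median difference of the 9 was 0.43 on the log2 scale, against -0.06 over all genes. Of the 9, 7 were positive, and without Abca1 6 of 8 were, where 7779 of all 19773 genes were positive. Levels below are log2 values with each array's 75th percentile at 0, so levels of different probes are not compared. Differences are GFP-positive minus GFP-negative with the standard error of the fit.

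**Figure D1:**
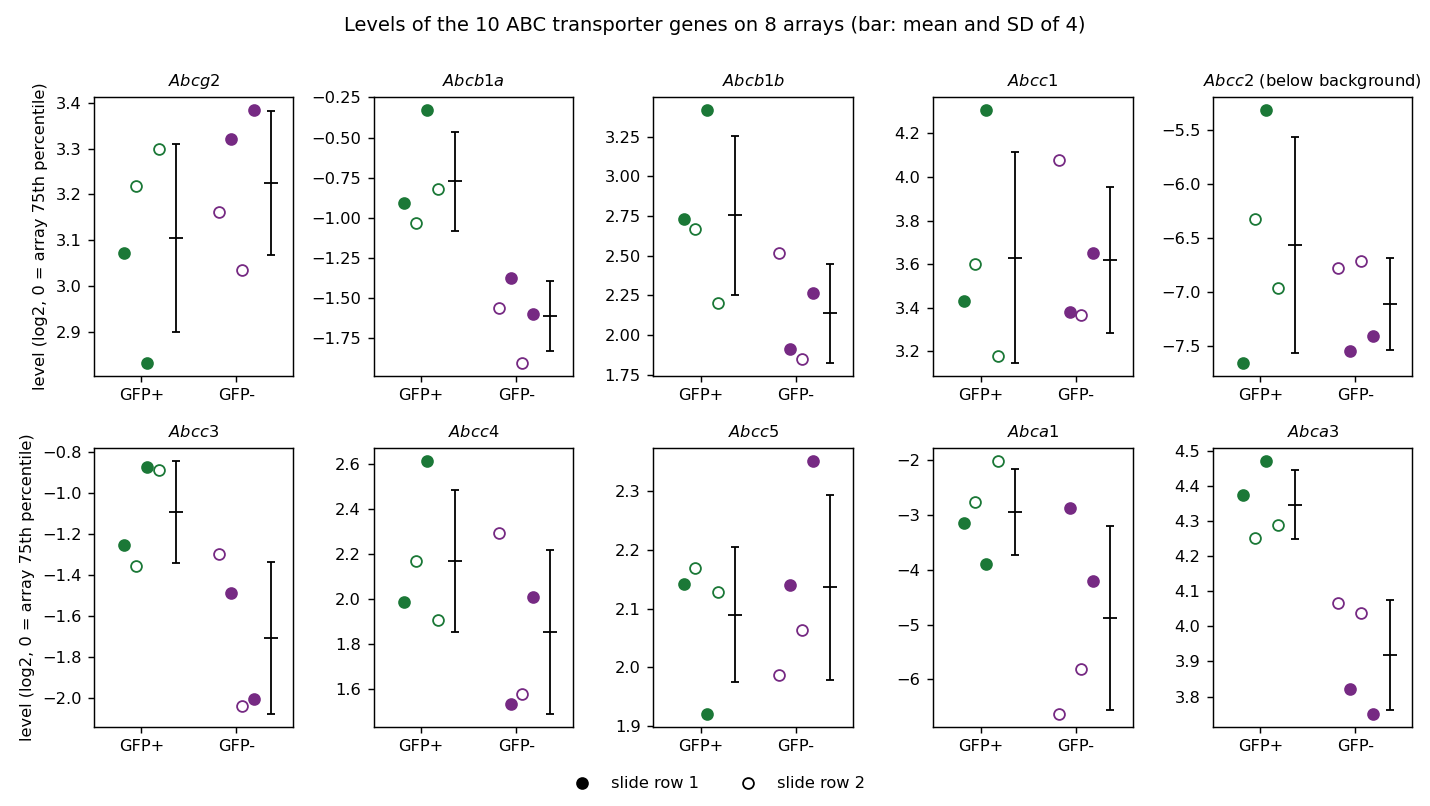
Levels of the 10 transporter genes on 8 arrays, 1 panel per gene, with log2 level relative to the array's 75th percentile on the vertical axis, GFP-positive arrays on the left and GFP-negative on the right of each panel. Filled points are arrays of slide row 1, open points those of row 2, and bars show the mean and SD of 4 arrays. Only in the Abcb1a and Abca3 panels do the groups not overlap, and Abcc2 was not well above background on any array.

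The P-glycoprotein gene Abcb1a had levels of -0.91, -1.03, -0.33 and -0.82 on GFP-positive arrays 1 to 4, against -1.57, -1.38, -1.91 and -1.60 on GFP-negative arrays 1 to 4. Every GFP-positive array lay above every GFP-negative array, with GFP-positive replicate 3 the highest. The mean was -0.77 ± 0.31 in GFP-positive cells and -1.61 ± 0.22 in GFP-negative cells (SD, n = 4 each), with a difference of 0.84 ± 0.17, or 1.79-fold (95% interval 0.44 to 1.24 on the log2 scale, limma unadjusted p = 0.00131, adjusted p = 0.0504). By its p value it ranked 513 of 19773 genes. The difference was 0.87 in slide row 1 and 0.81 in row 2, with 2 arrays against 2 in each (adjusted p = 0.118 and 0.406 in limma). Which side of the threshold it fell on depended on the setting: it passed under 6 of 20 others and missed it without any 1 of the 8 arrays, with adjusted p from 0.0535 to 0.134.

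Its paralog Abcb1b, the other P-glycoprotein gene, had levels of 2.73, 2.67, 3.42 and 2.20 in GFP-positive cells, against 2.52, 1.91, 1.85 and 2.27 in GFP-negative cells. The groups overlapped, because GFP-positive replicate 4 lay below GFP-negative replicates 1 and 4. The mean was 2.75 ± 0.50 in GFP-positive cells and 2.14 ± 0.31 in GFP-negative cells, with a difference of 0.62 ± 0.26 (95% interval 0.01 to 1.22, adjusted p = 0.213 in limma). Slide rows 1 and 2 gave 0.99 and 0.25. The difference of Abcb1a exceeded that of Abcb1b by 0.22, which an exact permutation test over the 70 splits of the arrays did not separate from 0 (two-sided p = 0.371, the smallest possible being 0.0286).

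Abcb1a and Abcb1b are neighbours, and Abcb4, which encodes the phosphatidylcholine floppase of bile canaliculi, lies beside them. Abcb4 was looked up after its value was seen. Its probe is at chr5:8959108-8959167 (plus strand, mm9), and its levels were 2.20, 2.28, 2.93 and 2.00 in GFP-positive cells and 1.93, 1.46, 1.46 and 1.81 in GFP-negative cells. The groups did not overlap, and the difference was 0.69 ± 0.21 (adjusted p = 0.113 in limma), with 0.93 within slide row 1 and 0.44 within row 2. Of the 10 genes tested within 500000 bases of the Abcb1 pair, the pair included, 7 had a positive difference and 1 passed the threshold. Over all genes 7779 of 19773 were positive and 2.55% passed. The 7 include the pair itself and Abcb4. The gene that passed was Tmem243, a transmembrane protein gene, which fell by 0.53 (adjusted p = 0.0225 in limma). Its call was kept in 3 of the 8 fits without 1 array. The call was lost with slide row as a block (adjusted p = 0.0506), and the difference was -0.65 in row 1 and -0.40 in row 2. Slc25a40, a mitochondrial carrier gene on the other side of Abcb1a, differed by 0.35 (adjusted p = 0.105), by 0.58 in row 1 and 0.12 in row 2.

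The promoters of these 3 neighbours are shown because the differences of their genes had the same sign, although none passed the threshold. Sequences are those of RefSeq on GRCm38.p6, from 250 bases before to 50 after the transcript start, at chr5:8566841-8567140 for Abcb1a, chr5:8797897-8798196 for Abcb1b and chr5:8893471-8893770 for Abcb4, all on the plus strand. Capitals mark matches on either strand to the antioxidant response element (TGACNNNGC), the GC box (GGGCGG) and the CCAAT box (CCAAT).
Abcb1a: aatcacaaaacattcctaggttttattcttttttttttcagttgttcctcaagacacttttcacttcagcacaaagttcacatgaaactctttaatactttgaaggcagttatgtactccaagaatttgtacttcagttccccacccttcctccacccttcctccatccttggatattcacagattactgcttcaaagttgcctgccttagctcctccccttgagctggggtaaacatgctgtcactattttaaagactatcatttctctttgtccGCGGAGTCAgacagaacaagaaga
Abcb1b: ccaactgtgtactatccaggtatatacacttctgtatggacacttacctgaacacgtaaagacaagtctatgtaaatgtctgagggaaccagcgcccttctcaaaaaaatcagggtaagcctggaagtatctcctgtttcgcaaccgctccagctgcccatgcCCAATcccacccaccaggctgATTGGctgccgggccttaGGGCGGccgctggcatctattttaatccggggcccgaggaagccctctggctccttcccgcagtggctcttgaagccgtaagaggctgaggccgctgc
Abcb4: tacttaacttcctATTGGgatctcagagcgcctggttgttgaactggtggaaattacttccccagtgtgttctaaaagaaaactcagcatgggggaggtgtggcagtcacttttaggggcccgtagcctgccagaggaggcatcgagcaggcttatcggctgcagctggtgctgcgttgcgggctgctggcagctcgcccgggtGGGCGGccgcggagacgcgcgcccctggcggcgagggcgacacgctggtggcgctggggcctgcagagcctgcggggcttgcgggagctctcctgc
The Abcb1a window held a match to the antioxidant element, on the minus strand from base 27 after the start, and none to the others. The Abcb1b window held a GC box and a pair of CCAAT boxes in opposite orientation, at positions -87 and -66 from the start. The Abcb4 window held a GC box and a distant CCAAT box. Among all 32851 promoters given, 12.4% held the antioxidant element, 35.7% a GC box and 37.4% a CCAAT box. These matches describe letters, not binding. In all, 8 of the 10 transporter genes had promoters in the table.

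Abca3, the lamellar body lipid transporter, had levels of 4.37, 4.25, 4.47 and 4.29 in GFP-positive cells, against 4.07, 3.82, 4.04 and 3.75 in GFP-negative cells. The groups did not overlap, and the arrays of each lay within 0.32 of each other. The mean was 4.35 ± 0.10 in GFP-positive cells and 3.92 ± 0.16 in GFP-negative cells, with a difference of 0.43 ± 0.10, or 1.34-fold (95% interval 0.20 to 0.65, unadjusted p = 0.00243, adjusted p = 0.0621 in limma). The difference came to 0.64 in slide row 1 and to 0.22 in row 2. In 4 of 20 other settings Abca3 passed the threshold. The surfactant genes Sftpc, Sftpb and Sftpa1, which mark the lung cells best known for Abca3, were well above background on no array. Of the 6 markers of those cells, 4 were well above background on no array. Their summed signal, nearly all of it from Lamp3, was 37.8 to 46.2 times the 75th percentile in GFP-positive cells. In GFP-negative cells it was 53.3 to 62.6 times. Lamp3 itself fell by 0.49 (adjusted p = 0.0400 in limma), so the sum and this fall are the same result. Sftpd, the other tested marker, differed by 0.41 (adjusted p = 0.661 in limma).

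Abca1, the cholesterol exporter, was dim and the most variable member. Its levels were -3.14, -2.77, -3.90 and -2.02 on the GFP-positive arrays, all well above background. They were -6.63, -2.87, -5.81 and -4.21 on the GFP-negative arrays, of which replicates 1 and 3 were not well above background. The mean was -2.96 ± 0.78 in GFP-positive cells and -4.88 ± 1.67 in GFP-negative cells, with a difference of 1.92 ± 0.80 (95% interval 0.07 to 3.78, adjusted p = 0.206 in limma). It met the filter through the GFP-positive arrays, and its interval and p rest on the measured values of 2 arrays not well above background. With each array held at no less than its lowest signal well above background, the difference was 1.23. Slide row 1 gave 0.02 and row 2 gave 3.83, where both GFP-negative arrays were not well above background. With background corrected by normexp it was 0.52.

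**Figure D2:**
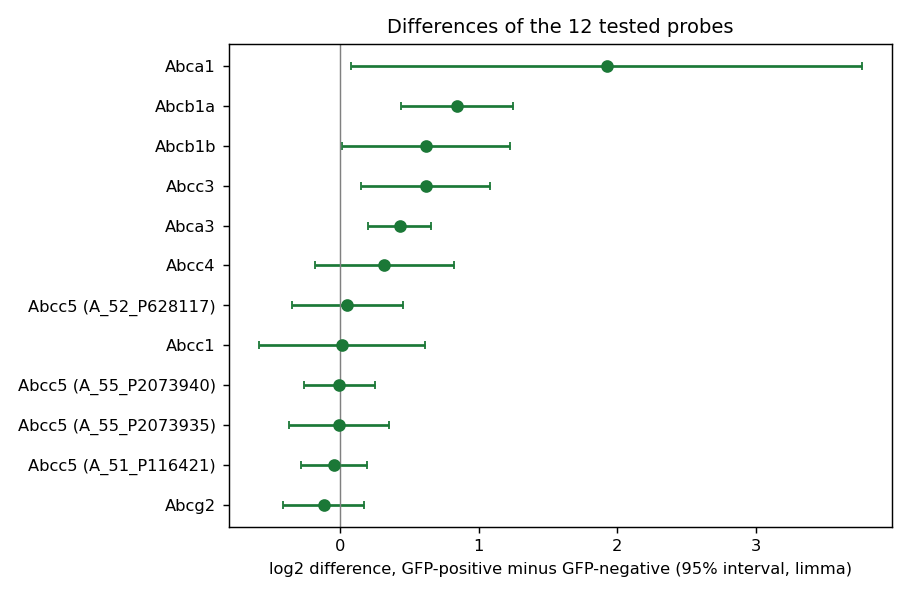
Log2 difference, GFP-positive minus GFP-negative, of the 12 tested transporter probes, with points for the estimate and bars for the 95% interval in limma. The intervals of Abca1, Abcb1a, Abcb1b, Abcc3 and Abca3 lie above 0, that of Abca1 is the widest and rests in part on 2 arrays not well above background, and the 4 Abcc5 probes lie close to 0.

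Among the multidrug resistance-associated proteins, Abcc3, an exporter of glucuronides and bile salts, had levels of -1.26, -1.36, -0.87 and -0.89 in GFP-positive cells, against -1.30, -1.49, -2.04 and -2.0 in GFP-negative cells. GFP-negative replicate 1 lay above GFP-positive replicate 2, so the groups overlapped by that array. The difference was 0.61 ± 0.20 (95% interval 0.15 to 1.08, unadjusted p = 0.0160, adjusted p = 0.130 in limma). Slide rows 1 and 2 gave 0.68 and 0.55. Its probe is at chr11:94204612-94204671 (minus strand, mm9).

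Abcc4, which exports cyclic nucleotides and prostaglandins, had levels of 1.99, 2.17, 2.61 and 1.91 in GFP-positive cells and 2.30, 1.53, 1.58 and 2.01 in GFP-negative cells. The groups overlapped broadly, and the difference was 0.32 ± 0.22 (95% interval -0.18 to 0.82, adjusted p = 0.419 in limma), with 0.53 within slide row 1 and 0.10 within row 2. Its probe is at chr14:118882104-118882163 (minus strand, mm9).

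Abcc1, the founding member of this group and an exporter of glutathione conjugates, had levels of 3.43, 3.60, 4.31 and 3.18 in GFP-positive cells and 4.08, 3.38, 3.36 and 3.65 in GFP-negative cells. The difference was 0.01 ± 0.26, and its 95% interval of -0.59 to 0.61 leaves room for a change of up to that size either way (adjusted p = 0.985 in limma). Slide rows 1 and 2 gave 0.35 and -0.33. Its probe is at chr16:14474551-14474610 (plus strand, mm9).

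Abcc5, an exporter of cyclic nucleotides and nucleotide analogues, was read by 4 probes on the minus strand of chromosome 16. The brightest, at chr16:20331568-20331627 (mm9), was printed 10 times per array and had levels of 2.14, 2.17, 1.92 and 2.13 in GFP-positive cells and 1.99, 2.14, 2.06 and 2.35 in GFP-negative cells. Its difference was -0.05 ± 0.10 (95% interval -0.28 to 0.19, adjusted p = 0.824 in limma). The other 3 probes, between 20392789 and 20404713, differed by -0.01, -0.01 and 0.05 in the fit of 27590 probes, where 2.00% passed the threshold and 0 of the 12 tested transporter probes did. All 4 intervals lay within -0.37 and 0.45.

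Abcc2, an exporter of liver and kidney, was not well above background on any array (chr19:43912079-43912138, plus strand, mm9). Its measured levels ran from -7.66 to -5.31 in GFP-positive cells and from -7.55 to -6.72 in GFP-negative cells, so no fold is given.

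Abcg2, the pump most often linked to stem-like cells through dye exclusion, had levels of 3.07, 3.22, 2.83 and 3.30 in GFP-positive cells, against 3.16, 3.32, 3.03 and 3.39 in GFP-negative cells. The groups interleaved. The mean was 3.1 ± 0.21 in GFP-positive cells and 3.23 ± 0.16 in GFP-negative cells, with a difference of -0.12 ± 0.13 (95% interval -0.41 to 0.17, adjusted p = 0.610 in limma). A rise of more than 0.17 in GFP-positive cells lies outside that interval. The difference came to -0.40 in slide row 1 and to 0.16 in row 2.

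Several transporters varied together from array to array inside each group. Abcb1b, Abcc1, Abcc4, Abcb1a, Abcc3 and Abca3 had their highest GFP-positive level on replicate 3, the array with the most probes above background. Abcb1b, Abcc1, Abcc4, Abcc3 and Abca3 had their highest GFP-negative level on replicate 1. Abcg2, Abcc5 and Abca1 had their lowest GFP-positive level on that same replicate 3. The spread of Abcc1 within GFP-positive cells, 1.13 between the highest and lowest array, was far larger than its difference between the groups. After subtraction of the group means, Pearson's r over the 8 arrays was 0.97 between Abcb1b and Abcc1, 0.95 between Abcc4 and Abcc1 and 0.92 between Abcb1b and Abcc4. It was -0.90 between Abca3 and Abcc5, -0.87 between Abca3 and Abcg2, -0.85 between Abca3 and Abca1 and 0.79 between Abcg2 and Abcc5. The pairs named had the largest r, of either sign, among all pairs of tested members. These values describe arrays that share a slide and its rows, and carry no test. Without GFP-positive replicate 3 the difference of Abcb1b was 0.40, that of Abcc4 0.17 and that of Abcc1 -0.21.

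**Figure D3:**
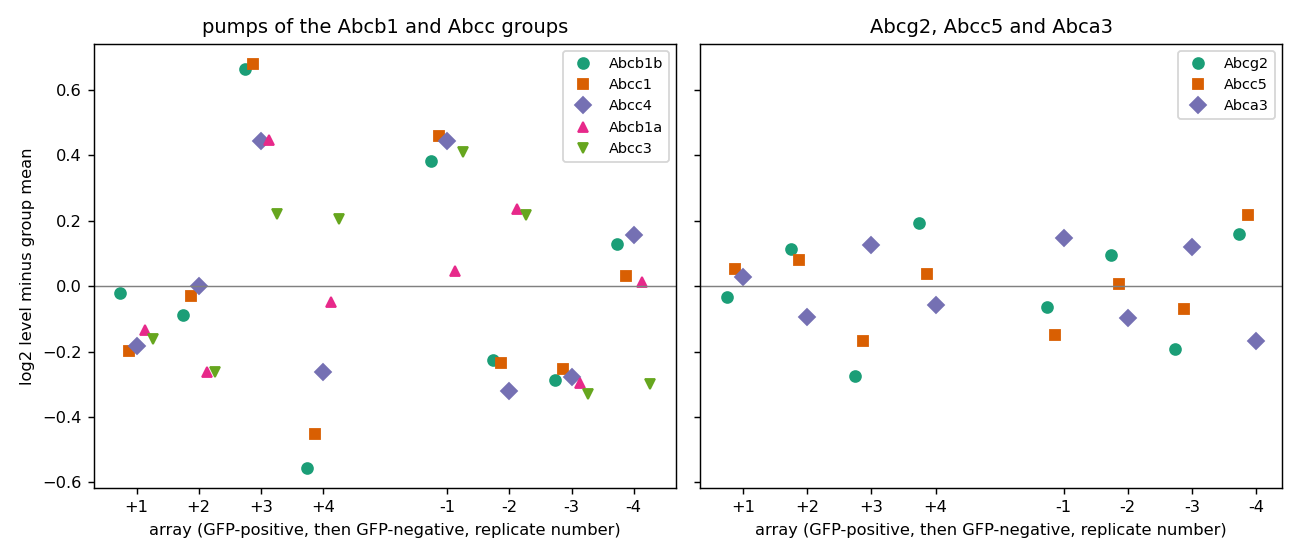
Log2 level minus the group mean for each array, GFP-positive arrays first and GFP-negative arrays after them, for Abcb1b, Abcc1, Abcc4, Abcb1a and Abcc3 on the left and Abcg2, Abcc5 and Abca3 on the right. Among the 4 GFP-positive arrays the left-hand genes are highest on replicate 3, where Abcg2 and Abcc5 are lowest; over all 8 arrays Abcc3 is highest on GFP-negative replicate 1.

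Between the rows of the slide the members differed in how far their values held. Abcb1a and Abcc3 had nearly the same difference in both rows. Abcb1b, Abcc4 and Abca3 kept a positive sign but were larger in row 1, Abca1 had its large difference in row 2 and 0.02 in row 1, and Abcg2, Abcc1 and Abcc5 changed sign between the rows. Each row held replicates 1 and 3 of a fraction and replicates 2 and 4 of the other. Whether the row changed a difference was not tested.

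**Figure D4:**
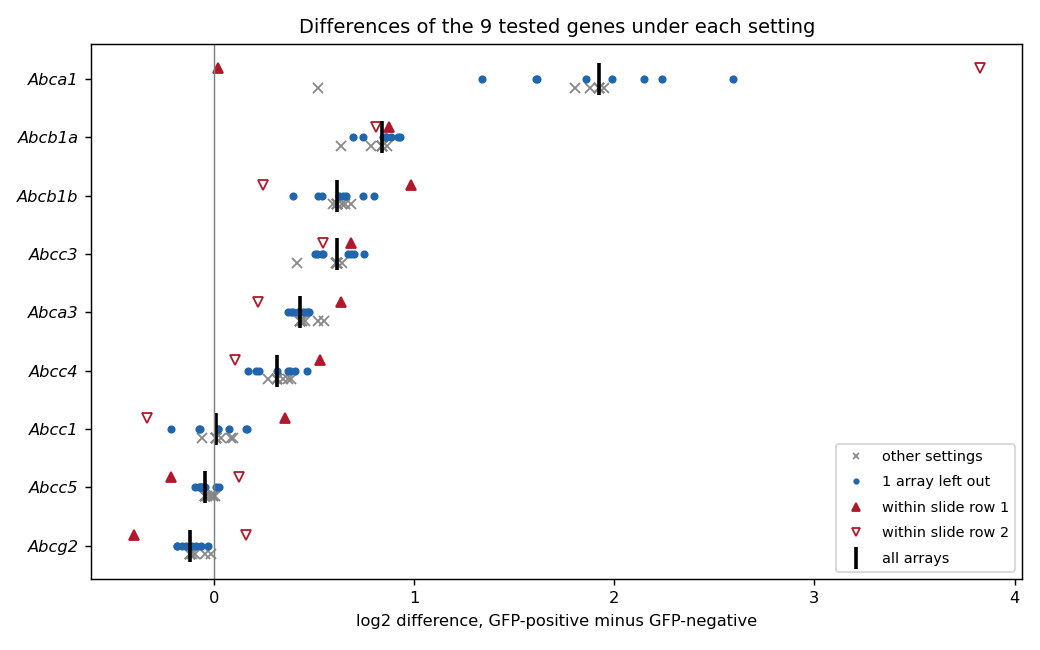
Log2 difference, GFP-positive minus GFP-negative, of the 9 tested transporter genes with all arrays (black bar), without each array in turn (blue dots), within each slide row (triangles) and under the other settings (crosses). Abcb1a and Abcc3 stay in a narrow range above 0, Abca1 spans 0.02 to 3.83, and Abcg2, Abcc1 and Abcc5 cross 0.

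The genes whose levels followed Abcb1a most closely over the 8 arrays were Fgfbp3, a carrier of fibroblast growth factors (Pearson's r = 0.994, Spearman's rho = 0.976), and Cpt1a, the carnitine transferase that admits fatty acids to mitochondria (0.992 and 0.976). They were followed by a transcript that the files name only by its place on chromosome 15 (0.986 and 0.952), Mkks (0.981 and 0.976) and Whrn (0.977 and 0.952). Both the difference between the groups and the spread inside them enter r. The groups of Abcb1a did not overlap, so genes picked for following it are higher in GFP-positive cells by that choice. Of the 5, Fgfbp3 and Whrn passed the threshold, by 1.06 and 0.84 (adjusted p = 0.0377 and 0.0142 in limma), where 2.55% of all genes passed. Given how they were picked, these calls are no separate result.

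Elsewhere in the ABC family, 2 of 25 tested genes rose, 0 fell and 23 did not pass, with 18 of the 43 listed genes not tested. The shares over all genes were 1.82% higher and 0.733% lower. Tap1, a subunit of the peptide pump of antigen presentation, had levels of -0.59, -0.96, -0.64 and -0.68 in GFP-positive cells and -2.46, -1.97, -2.19 and -2.38 in GFP-negative cells. The mean was -0.72 ± 0.17 in GFP-positive cells and -2.25 ± 0.22 in GFP-negative cells, with a rise of 1.53 ± 0.13 (adjusted p = 0.00127 in limma), with 1.56 and 1.5 within slide rows 1 and 2. Its partner Tap2, like the other genes named below that did not pass, other than those with the smallest p of their list, was picked after values were seen; it differed by 0.05 ± 0.41 (adjusted p = 0.953). Abcg1, which exports cholesterol to high-density lipoprotein, had levels of 1.73, 1.32, 1.31 and 1.25 in GFP-positive cells and 0.23, 0.07, 0.57 and 0.54 in GFP-negative cells. It rose by 1.05 ± 0.15 (adjusted p = 0.0148 in limma), by 1.21 within row 1 and 0.88 within row 2. Tap1 and Abcg1 passed without each of the 8 arrays in turn. The list's median was 0.03, against 0.43 for the 9 transporters and -0.06 for all genes.

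Abca1 and Abcg1 are classic targets of the liver X receptors, which sense oxysterols. In the list of such targets, Abca1 was left out. Of its 12 tested genes 2 rose, 0 fell and 10 did not pass, with a median of -0.15. The shares over all genes were 1.82% higher and 0.733% lower. Besides Abcg1 the riser was Pltp, the plasma phospholipid transfer protein, at 0.67 ± 0.19 in GFP-positive cells and -1.19 ± 0.07 in GFP-negative cells, with a rise of 1.85 ± 0.10 (adjusted p = 0.000272 in limma), with 1.93 and 1.78 within slide rows 1 and 2. Others did not pass, among them Srebf1 (-0.09), Mylip (-0.26), Scd1 (-0.49) and Lpcat3 (0.11). Nr1h3, the gene of liver X receptor alpha, differed by -0.75 ± 0.23 (adjusted p = 0.114).

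Transcription factors known to act on drug efflux genes showed 0 of 26 tested genes past the threshold in limma, with 6 lower and 0 higher before adjustment, at p under 0.05, where 15.1% of all genes were lower and 7.82% higher. The smallest p values were those of Gli1, the Hedgehog effector, with a difference of -1.11 ± 0.27 (adjusted p = 0.0684), and Nr1h3. Gli1 differed by -1.73 in slide row 1 and by -0.49 in row 2, and Nr1h3 by -1.04 and -0.46. Nfe2l2, which encodes NRF2, a regulator of several Abcc genes, differed by 0.08 ± 0.10 (adjusted p = 0.650), and its inhibitor Keap1 by 0.02 ± 0.11. Nr1i2, the gene of the pregnane X receptor, was well above background on no array.

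Enzymes that make conjugates for export rose in 1 of 27 tested genes, with 0 falling. Of all genes 1.82% rose and 0.733% fell. Gstt3, a glutathione transferase, was at 1.78 ± 0.13 in GFP-positive cells and 0.94 ± 0.16 in GFP-negative cells, with a rise of 0.85 ± 0.11 (adjusted p = 0.00795 in limma), with 0.99 and 0.70 within slide rows 1 and 2. Ugt1a6b, a glucuronosyltransferase whose locus shares exons with its neighbours, differed by 2.16 ± 0.45 with groups that did not overlap (adjusted p = 0.0505), by 1.65 in row 1 and 2.66 in row 2. The list's median was 0.27. Gclc and Gclm, the subunits of the enzyme that limits glutathione synthesis, differed by 0.02 and -0.38 (adjusted p = 0.927 and 0.129).

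Of carriers for drug uptake and exchange, 1 of 17 tested genes rose and 0 fell, with a median of -0.21. Among all genes 1.82% rose and 0.733% fell. Slc22a18, an organic cation transporter-like gene, was at -3.25 ± 0.22 in GFP-positive cells and -4.45 ± 0.25 in GFP-negative cells, where 3 of 4 arrays were well above background. It rose by 1.20 ± 0.16 (adjusted p = 0.00894 in limma), by 1.07 in slide row 1 and 1.34 in row 2, and with normexp by 0.45. Slc31a2, a copper transporter gene, differed by 0.66 ± 0.14 (adjusted p = 0.0532), by 0.81 in row 1 and 0.52 in row 2. Drug-metabolising cytochrome P450 genes, listed together with Por, the reductase that serves P450 enzymes, were mostly below background. Of the 20 listed genes 6 were tested, Por among them, and 0 passed the threshold or an unadjusted p of 0.05 in limma. The smallest p values were those of Por (-0.19, adjusted p = 0.434) and Cyp3a13 (0.22, adjusted p = 0.634), and both had opposite signs in the rows.

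**Figure D5:**
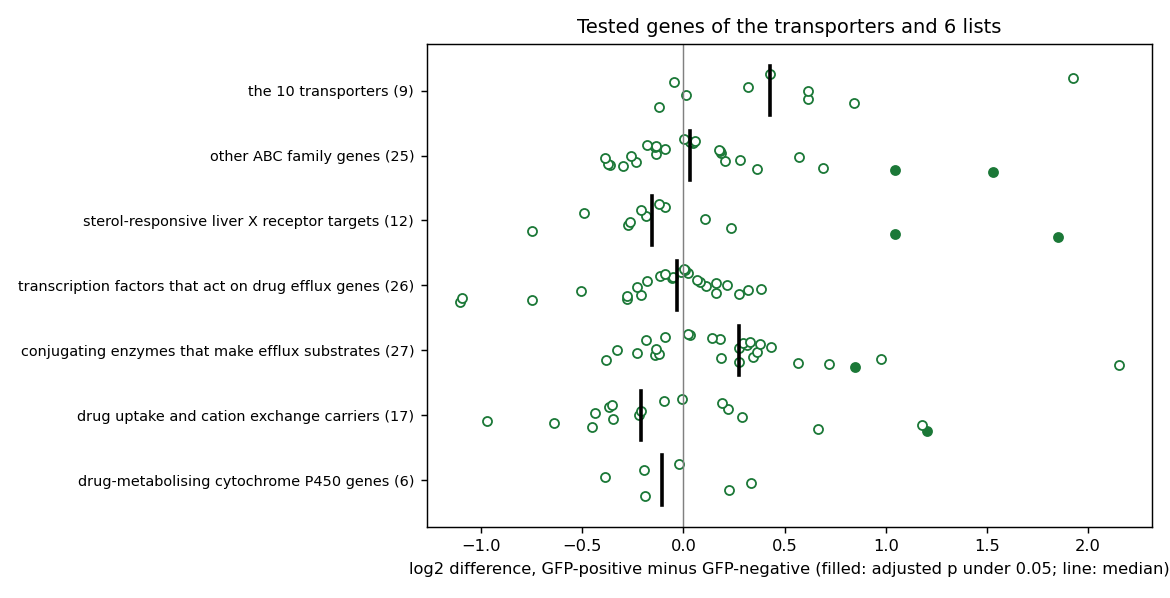
Log2 difference, GFP-positive minus GFP-negative, of each tested gene among the transporters (top) and in 6 lists of other genes, with the number tested in brackets, filled points for an adjusted p under 0.05 in limma and a black line for the median. The medians run from -0.21 for uptake carriers to 0.43 for the transporters, and the filled points lie to the right of 0.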

How the data were processed

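RNA of 4 GFP-positive and 4 GFP-negative sorted samples was hybridised to one-colour Cy3 arrays. The deposited files hold spot intensity, and per the file headers they were made with Agilent Feature Extraction 10.7.3.1 on a design placed on mm9; the submitters' processing notes name the same tool. The deposited processed intensity, spatially and multiplicatively detrended per the file headers, was scaled here: log2 of it minus each array's 75th percentile. Control and outlier spots were left out, spots of 1 probe averaged, and probes kept if well above background on 4 of the 8 arrays, which left 27590 of 55681. A gene took its brightest kept probe, named through RefSeq accessions where they matched. GFP-positive and GFP-negative arrays were compared with limma 3.58.1 in R 4.3.3, without a block, with Benjamini-Hochberg adjustment at 0.05 over 19773 genes or 27590 probes. The fit was tested on simulated data with independent noise and no slide row or replicate structure, and no result here rests on that test. The number of arrays limits the precision.

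The transporters and lists were chosen with earlier results of these data known. The rule for names took all 10 transporters, up to 4 passing genes of each list or otherwise the 2 with the smallest p, and the 5 genes most like the transporter with the smallest p. The neighbours of Abcb1a, Tap2, Srebf1, Mylip, Scd1, Lpcat3, Nfe2l2, Keap1, Nr1i2, Gclc and Gclm were named outside it, after their values were seen. Alternatives changed the background correction, scaling, filter, prior, array weights, probe rule and blocks, or left out 1 array.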

Additional observations from a re-analysis of the deposited data

Results flagged for a closer look

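On the brightest Abcc5 probe, GFP-positive replicate 3 lay at 1.92, far below the other 3 GFP-positive arrays at 2.13 to 2.17, relative to the range of the group. It was the 1 case among the 24 groups of 4 arrays examined, and chance gives about 1 in 20.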

How the results depend on the processing

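With all arrays 505 genes and 552 probes passed. Under the replicate block 216 genes and 220 probes passed, with slide row as a block 279 and 335, within row 1 1053 and 1277, and within row 2 0 and 0 in limma (2154 genes at an unadjusted p under 0.05). With no filter on dim probes 152 genes and 160 probes passed, with a trended robust prior 1165 and 1348, and with array weights 1479 and 1852. The genes split into 360 higher and 145 lower with all arrays, 538 and 627 with the trended prior, 684 and 795 with array weights, 629 and 424 within row 1, and 398 and 323 above background on all 8 arrays. Without 1 array, 151 to 425 genes and 181 to 439 probes passed.

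Of the transporters, 2 (Abcb1a and Abca3) passed with normexp, with probes above background on all 8 arrays, with the trended prior and with array weights, and 1 (Abcb1a) with median centring and with the mean of a gene's probes. Over all genes 531 of 19773 passed with normexp, 503 with median centring and 530 with the mean of a gene's probes. With probes above background on all 8 arrays 721 of 17305 genes passed. Of the transporters' probes 2 passed with normexp, the trended prior and array weights, and 1 with all 8 arrays above background. Over all probes 644 of 27590 passed with normexp and 770 of 23478 with all 8 arrays above background. Without 1 array, 0 to 0 passed. Across scalings the median of all genes moved by 0.04 at most.

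Of other ABC genes 1 passed under the replicate block, within row 1 and with no filter, 0 within row 2, and 2 to 3 without 1 array. Of sterol targets the counts were 1, 1 and 1 in those settings, 0 within row 2 and 2 to 2 without 1 array. Of transcription factors 2 passed within row 1, 1 with the trended prior and 1 with array weights, all lower in GFP-positive cells, and 0 to 0 without 1 array. Of conjugating enzymes 0 passed under the replicate block and within row 2, 3 within row 1, all lower in GFP-positive cells, and 3 with array weights, all higher. Gstt3 was not among the row 1 calls (adjusted p = 0.0519 in limma). With normexp, median centring, all 8 arrays above background, the trended prior and the mean of probes 2 passed, both higher, and 1 to 1 without 1 array. Of uptake carriers 0 passed under the replicate block and within row 2, 2 within row 1, both lower, and 2 with normexp, the trended prior and array weights, both higher. Slc22a18 was not among the row 1 calls (adjusted p = 0.0566 in limma). Calls numbered 1 to 2 without 1 array. P450 genes gave 0 to 0.

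Differences that changed sign were close to 0 with all arrays. Within row 2 they were 0.12 for Abcc5, -0.33 for Abcc1, 0.16 for Abcg2, and 0.23 and 0.17 for Abcc5 probes A_55_P2073935 and A_55_P2073940. With median centring those 2 probes gave 0.017 and 0.018, and with array weights 0.031 and 0.024, where Abcc1 gave -0.058. With quantile normalization Abcc5 gave 0.0075. Probe A_52_P628117 gave -0.014 with normexp and -0.0088 with quantile normalization. Without 1 array, Abcc1 ran from -0.21 to 0.16, Abcc5 from -0.096 to 0.026, and probes A_55_P2073935, A_55_P2073940 and A_52_P628117 from -0.11 to 0.12, -0.079 to 0.086 and -0.082 to 0.12. The cause was not tested in any of these.

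Arrays with the same replicate number deviated together with correlations of -0.03, 0.07, 0.02 and 0.18, and each correlated more with another number. Arrays of the same number always lay in different slide rows, so these correlations cannot show whether the numbers pair the samples. The main fit was run without pairing, and the replicate block is given as an alternative. With slide row as a block Tap1, Abcg1, Pltp, Gstt3 and Slc22a18 passed and Tmem243 did not. Under the replicate block Abcb1a had an adjusted p of 0.151 and Abca3 of 0.111 in limma. Depth is signal over background here, and it leaves Abcc2 without a level and Abca1 with a bound on 2 arrays.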
